A study of Mus musculus with 12 samples.

Results

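Mouse embryonic fibroblasts (MEFs) heterozygous for SIRT1 (Het) were compared with wild-type (WT) MEFs on 3 arrays of each genotype. MEFs are connective tissue cells grown out of embryos, and Het cells carry 1 intact and 1 altered copy of the gene. The 6 arrays were chosen by their labels, as the Het and WT arrays whose title does not end in the number 3, out of 12 arrays in all. The WT arrays were replicates 1, 2 and 5 and the Het arrays replicates 2, 4 and 5, and every set of 3 values below follows that order. Per the labels, all cells were female, were grown in DMEM with 10% fetal bovine serum, 25 mM glucose and 4 mM glutamine, and were harvested while growing. The labels name 1 cell line per genotype and do not say whether the replicates came from separate embryos or cultures, nor which piece of Sirt1 was altered. The p-values below thus reflect only how these samples vary, and that variation may be technical. WT replicate 3 and Het replicate 3, and 3 arrays of SIRT1 knockout (KO) MEFs (replicates 2, 4 and 5), are given as values, and entered a fit only as named alternatives. The study's title states its question as what SIRT1 dosage does to proliferation and metabolism, and the Het cells are the intermediate dose.

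SIRT1 is an NAD-dependent protein deacetylase of the nucleus, which removes acetyl groups from histones and from transcription factors such as p53, FOXO proteins and PGC-1alpha. Through these targets it is known for links between nutrient state, stress responses and the cell cycle. MEF cultures are mixtures of mesenchymal cells of different body positions, and they keep the transcription factors of the place they were taken from, such as Hox, T-box and LIM homeobox genes.

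A level is the log2 of a probe's signal over its array's 75th percentile, so 0 is that percentile, and differences are Het minus WT on the log2 scale with their standard error (SE). A level compares samples for 1 probe and does not rank genes against each other. The share of spots well above background was 60.0% to 63.7% on 4 of the 6 arrays and 77.8% and 78.2% on Het replicate 5 and WT replicate 5, which shared a slide. Over all tested features the arrays correlated at 0.987 to 0.994 within Het, 0.968 to 0.991 within WT and 0.944 to 0.969 between WT and Het. The highest of these, 0.994, joined Het replicates 4 and 5. WT replicate 3 stood apart from the other WT arrays (0.919 to 0.930) and Het replicate 3 from the other Het arrays (0.961 to 0.963). WT replicate 3 also went against its label: all samples are given as female, but there Xist, which silences an X chromosome in female cells, had a level of −2.94 against 1.67 to 3.42 on the other 11 arrays, and Y-linked genes had signal. Het replicate 3 had the lowest Xist level of the other 11 arrays, 1.67. Its Y-linked genes Ddx3y (−4.35) and Eif2s3y (−3.92) were also higher than on any of the 6 compared arrays. The replicate 3 pair below rests on both of these arrays. All 14 fibroblast markers examined were above background on all 6 arrays, and 1 of them, Thy1, was called lower in Het.

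The targeted gene did not pass the test at either of its probes. The probes lie on chromosome 10 of build mm7, and the first 30 of their 60 bases are shown because they are what the array read of Sirt1 in the Het cells.
Sirt1, chr10:62838289-62838348: aaactagggatcaattttctcaactgcaga
Sirt1, chr10:62855795-62855854: actaatggctttcattcctgtgaaagtgat
At the first probe the level was 0.38, 0.52 and 0.47 in WT and 0.37, 0.38 and 0.39 in Het. The Het values lay around the lowest WT value, and the groups overlapped. The difference was −0.08 (SE 0.13, limma adjusted p = 0.785), and the exact two-sided permutation p was 0.2, where 0.1 is the smallest that 3 against 3 arrays allow. At the second probe the levels were 0.87, 1.08 and 0.54 in WT and 0.50, 0.75 and 1.32 in Het, which overlapped widely (0.02, SE 0.26, limma adjusted p = 0.969, exact permutation p = 1). The 3 KO arrays stood at −0.54 ± 0.30 (SD) at the first probe, below all 6 arrays, and at 0.73 ± 0.45 at the second. Whether either probe lies inside the altered piece is not given, so these values do not check the Het label.

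Across the array, 1321 of 16457 tested features (8.03%) differed between Het and WT at a limma adjusted p under 0.05. Of these, 607 rose (3.69% of those tested) and 714 fell (4.34%). The falls were the larger changes, with a median of −1.66 against 1.31 for the rises, and 65 features fell by at least 16-fold where 10 rose that far. Of the called features, 26 were not well above background on any Het array and 5 on any WT array. The sizes of these rest in part on signals near background. Changes of at least 2-fold numbered 976 (5.93% of those tested), 415 up and 561 down. In each of the 1321 the 3 Het and 3 WT arrays did not overlap, as was so for 33.6% of all tested features. All tested features together had a median difference of 0.04, or −0.10 without scaling the arrays, and unscaled signals gave 651 calls, 185 up and 466 down, so that 28.4% of calls were rises in place of 45.95%. The count depended on each array: with WT replicate 1, 2 or 5 left out it was 2226, 559 or 636, and with Het replicate 2, 4 or 5 left out 460, 348 or 512. With WT and Het replicate 3 added it was 34.

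**Figure D1:**
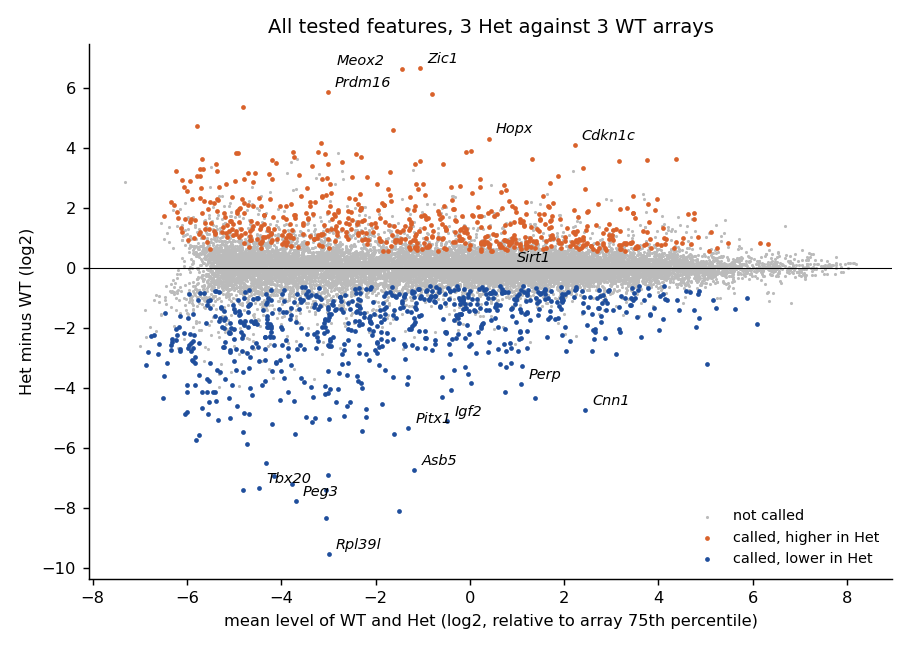
Difference between Het and WT (log2, vertical axis) against mean level (log2 relative to the array's 75th percentile, horizontal axis) for the 16457 tested features, with the 607 called rises in orange, the 714 called falls in blue and other features in grey. The falls reach farther from 0 than the rises, and Sirt1 lies at 0.02.

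The genes that fell most included 5 transcription factors known from heart, limb and neural precursors, Tbx20, Isl1, Tbx5, Lhx8 and Sim1. Tbx20, a T-box factor of the heart (chr9:24605717-24605776), stood at −0.75, −1.06 and −0.62 in WT and −7.96, −7.94 and −8.49 in Het. It was not well above background on any Het array, so its fall was at least 49.9-fold (fitted difference −7.32, SE 0.21, limma adjusted p = 6.62e-05). Isl1, a LIM homeodomain factor of cardiac progenitors and motor neurons, was at −0.62, −0.14 and 0.24 in WT and −7.43, −7.60 and −7.07 in Het, a difference of −7.20 (SE 0.26, limma adjusted p = 0.00014). It was above background on 1 of 3 Het arrays, and so was Tbx5, a T-box factor of heart and forelimb. Tbx5 fell from 0.44 ± 0.27 to −6.45 ± 0.48 (SD, n = 3 each), by 6.89 (adjusted p = 0.000189). Lhx8, a LIM homeodomain factor of the forebrain and jaw, fell at least 40.2-fold, and Sim1, a bHLH-PAS factor of the hypothalamus, at least 11.4-fold. Neither was above background on a Het array. Mycn, the N-Myc proto-oncogene, fell by 6.91 to a level above background on 1 Het array.

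Other large falls were in secreted, membrane and enzyme genes. Rpl39l, a ribosomal protein gene closely related in sequence to Rpl39 (array name 4930517K11Rik, chr16:9846568-9846627), had the largest fall, from 2.57, 1.40 and 1.36 in WT to −7.98, −7.94 and −7.36 in Het. All WT values were above the array's 75th percentile and 1 Het array was above background, and the difference was −9.53 (SE 0.37, limma adjusted p = 0.000164). Cross-hybridisation with related ribosomal genes was not tested, and its second tested probe differed by −5.86. Cck, the peptide hormone cholecystokinin, was at 3.10, 0.05 and 0.18 in WT and −7.57, −7.43 and −6.58 in Het, and Aldh1a7, an aldehyde dehydrogenase, at 1.95, 3.16 and 2.51 and −5.21, −6.00 and −5.47. The groups did not overlap in either, with differences of −8.31 (adjusted p = 0.00394) and −8.10 (adjusted p = 0.000264). Asb5, an ankyrin repeat and SOCS box protein of muscle, fell with the smallest p of all falls. It was measured above background on all 6 arrays at 2.47, 2.07 and 2.00 in WT and −4.64, −4.51 and −4.48 in Het (−6.72, SE 0.17, limma adjusted p = 5.71e-05). Vat1l, Galnt14, a mucin-type glycosyltransferase, and Serpinb2, a plasminogen activator inhibitor, fell (differences of −7.38, −6.48 and −5.86), each to a level above background on 1 Het array. The vasopressin receptor gene Avpr1a fell at least 11.2-fold. Among the smallest p-values were also Cnn1, Ces2g, a carboxylesterase with a fall of at least 12.4-fold, and Pde1a, a cyclic nucleotide phosphodiesterase that fell by 4.91 (adjusted p = 8.66e-05).

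The genes that rose most included the developmental regulators Zic1, Meox2, Prdm16, Hopx and Osr2. Zic1, a zinc finger factor of neural tube and somites, was at −1.75, −6.76 and −4.66 in WT and 2.40, 2.31 and 2.14 in Het. The Het arrays were close together while the WT arrays spread widely, and the difference was 6.67 (SE 1.14, limma adjusted p = 0.0217). Meox2, a homeobox factor of somites and limb muscle, also spread widely in WT, with −1.98, −7.63 and −4.69 in WT and 2.14, 1.81 and 1.71 in Het (6.65, SE 1.29, limma adjusted p = 0.0307). Prdm16, a zinc finger co-regulator known from brown fat, was at −5.23, −5.87 and −6.79 in WT and −0.02, −0.15 and −0.06 in Het, and rose by 5.88 (SE 0.38, adjusted p = 0.00086). Hopx, a homeodomain protein that does not bind DNA (array name Hod, chr5:77019011-77019070), had the smallest p of the rises. Its 3 Het values, 2.48, 2.49 and 2.71, lay far above its WT values, −1.87, −1.92 and −1.52 (4.33, SE 0.17, limma adjusted p = 0.000164). Osr2, an odd-skipped zinc finger factor, rose from −1.93 ± 0.72 to 1.98 ± 0.47 (SD, n = 3 each; adjusted p = 0.00473).

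Among the other rises, Cdkn1c, the imprinted CDK inhibitor p57, was at 1.01, −0.23 and −0.28 in WT and 4.52, 4.01 and 4.30 in Het (4.11, SE 0.37, limma adjusted p = 0.00304). Tnmd (tenomodulin, a tendon membrane protein) rose by 5.39, Syt13 (a synaptotagmin) by 5.82, Amph (amphiphysin, of endocytosis) by 4.63 and Vit (the matrix protein vitrin) by 4.20. Their adjusted p-values ran from 0.00935 for Amph to 0.0339 for Syt13. At its second tested probe Syt13 rose by only 1.45. Ptgfr, the prostaglandin F receptor, Entpd1, the ectonucleotidase CD39, and Cyp4f14, a fatty acid hydroxylase, rose by 3.89, 3.87 and 3.85. Ifi203 and Epsti1, both known as interferon-induced, rose by 3.89 and 3.86. The second tested probe of Epsti1 differed by 1.75 and did not pass with every probe fitted (limma adjusted p = 0.21). Fbn2 (fibrillin 2) and Rapsn (rapsyn) rose by 2.98 and 3.25 with adjusted p-values of 0.000852 and 0.00086. Of these 15 rises 5 were well above background on all arrays of both genotypes, and Zic1, Meox2 and Prdm16 were so on 2 of 3 WT arrays, so that their fitted differences rest in part on signals near background. Of the 15 largest falls 1 was well above background on all arrays of both genotypes, so that the sizes of most falls rest in part on such signals. All 15 of the largest falls passed the test without any 1 of the 6 arrays, and 6 of the 15 largest rises did. All 30 passed it without WT replicate 1, and 21 without each of the 3 Het replicates.

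**Figure D2:**
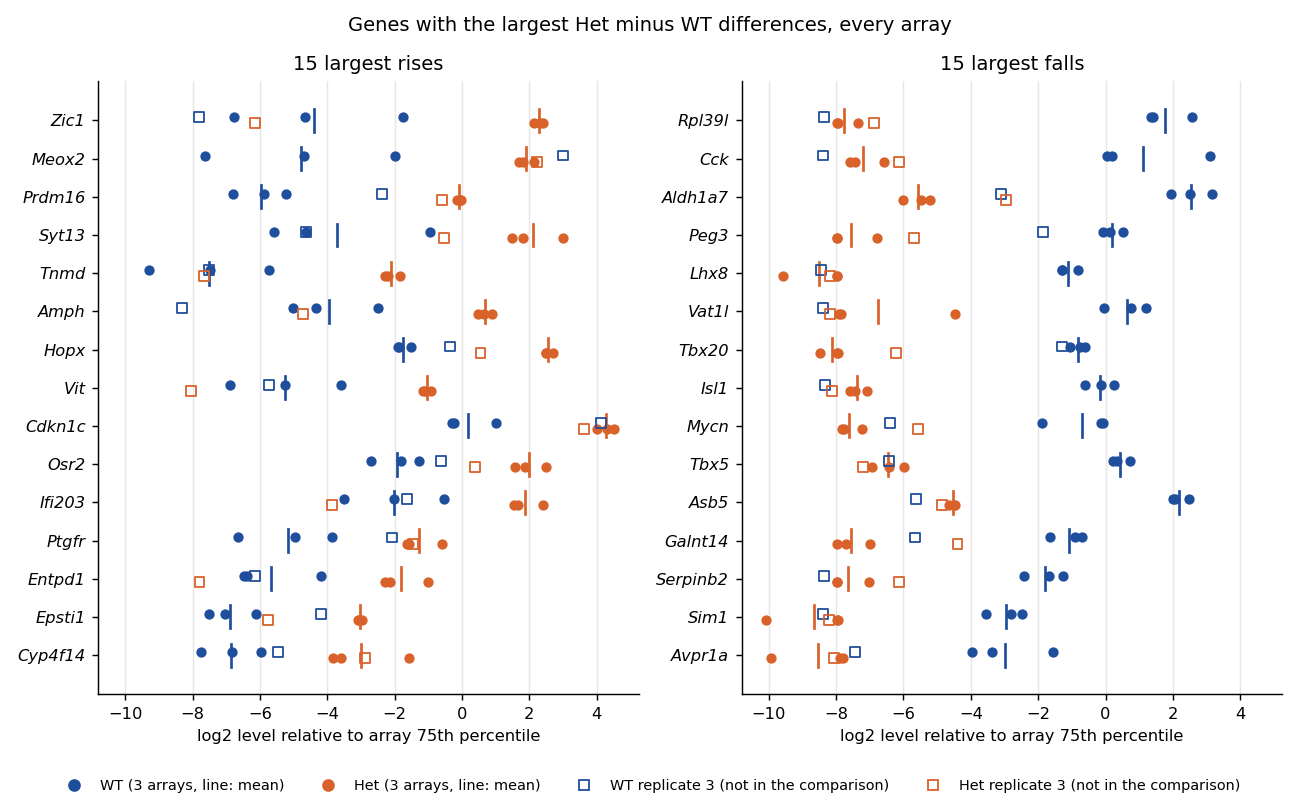
Level on every array (log2 relative to the array's 75th percentile, horizontal axis) of the 15 largest rises and 15 largest falls, with WT in blue, Het in orange, lines at the means of the 3 arrays of each genotype and open squares for the replicate 3 arrays. The WT and Het points do not overlap in any gene shown, and in 13 of the 15 falls the open WT square lies nearer the Het mean.

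The replicate 3 arrays are a further Het and WT pair that shares no array with the comparison. Each correlated more with the other (0.965) than with any other array of its own genotype. On this pair 12 of the 30 genes above kept the sign of the difference, 8 of the 15 rises and 4 of the 15 falls. WT replicate 3 was nearer the Het mean than the WT mean in 13 of the 15 falls. Tbx20 and Peg3 were the other falls. Tbx20 was at −1.29 in the WT and −6.21 in the Het array of this pair, and Peg3 at −1.85 and −5.68. Of the 30 genes, these 2 passed the test with all 8 arrays (limma adjusted p = 0.00236 and 0.0112). Rpl39l, by contrast, was at −8.36 in the WT and −6.87 in the Het array of this pair, low on both. In the rises, Hopx, Osr2, Cyp4f14 and Syt13 had both replicate 3 arrays nearer the mean of their own genotype. The KO mean was nearer the Het mean in 13 of the 15 falls and in 4 of the 15 rises.

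Over all called features the replicate 3 pair kept the direction of the comparison about as often as features in general shared it. Of the 607 rises, 380 (62.6%) were higher in Het on this pair, where 63.5% of all tested features were. Of the 714 falls, 283 (39.6%) were lower, where 36.5% of all tested features were. Among the 415 rises of at least 2-fold, 107 (25.8%) were at least 2-fold higher on the pair and 57 (13.7%) at least 2-fold lower, against 11.6% and 6.99% of all tested features. Among the 561 falls of at least 2-fold, 102 (18.2%) were at least 2-fold lower and 142 (25.3%) at least 2-fold higher. With 1 array of each genotype the pair has no error of its own.

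**Figure D3:**
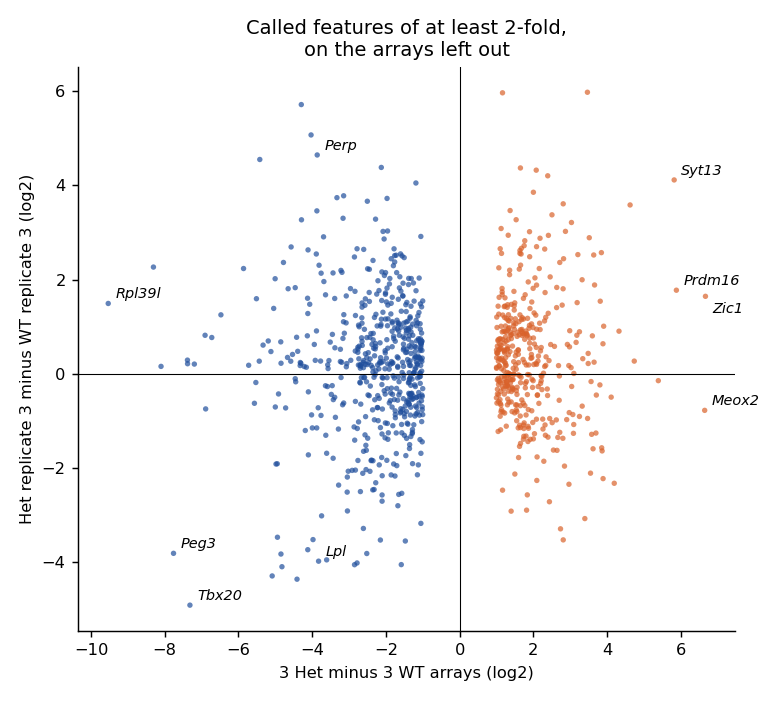
Het replicate 3 minus WT replicate 3 (log2, vertical axis) against the difference of the 3 Het and 3 WT arrays (log2, horizontal axis) for the called features of at least 2-fold, rises in orange and falls in blue. Falls lie on both sides of the horizontal line at 0, with Tbx20 (−4.92) and Peg3 (−3.82) far below it.

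Transcription factors of limb and trunk were the developmental list with the most calls. Of 48 tested members, 8 rose and 15 fell, against 3.69% and 4.34% of all tested features, and the median was −0.63 against 0.04. Besides Tbx20 and Tbx5, Tbx3, a T-box factor of limb and mammary bud, fell from 2.46 ± 0.12 to −0.69 ± 0.11 (SD, n = 3; −3.15, SE 0.14, limma adjusted p = 0.000295). Shox2, of limb and sinus node, was at −1.30, −0.88 and −0.83 in WT and −6.41, −5.51 and −5.93 in Het (−4.95, SE 0.27, limma adjusted p = 0.000447). Pitx1, the hindlimb homeobox factor, was chosen for mention after its values were seen. It was high in WT (1.49, 1.53 and 1.07) and low in Het (−4.64, −4.05 and −3.22), but at 2.83 and 3.43 on WT and Het replicate 3 and at 3.71 ± 0.21 (SD, n = 3) on the KO arrays. Leaving out 1 array at a time gave 4 to 10 rises and 8 to 19 falls, and the 8 arrays gave 1 and 2. The list's median on the replicate 3 pair was 0.31, against 0.23 over all tested features.

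Hox genes, which mark body position, moved in both directions. Of 28 tested, 4 rose and 2 fell, against 3.69% and 4.34% of all tested features. With 1 array left out there were 0 to 4 rises and 1 to 3 falls. Hoxb13, the most posterior HoxB gene, was at −1.61, −3.05 and −2.98 in WT and 0.37, 0.21 and 0.18 in Het (2.80, SE 0.39, limma adjusted p = 0.0112), and Hoxb7 rose by 0.93 (adjusted p = 0.022). The distal limb genes Hoxa13 and Hoxa11 fell, Hoxa13 from −4.35 ± 0.29 to −6.07 ± 0.30 and Hoxa11 from 2.40 ± 0.19 to 1.00 ± 0.28 (SD, n = 3; adjusted p = 0.00935 and 0.0116). Hoxa13 was above background on 1 of 3 Het arrays. Hoxb13 was lower on WT replicate 3 (−4.89) and Het replicate 3 (−6.26) than on any of the 6 arrays.

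Imprinted genes, read from 1 parental copy, were called more often than features in general but in no shared direction. Of 30 tested, 4 rose and 7 fell, against 8.03% of all tested features called in either direction, and the median was 0.08. Peg3, a paternally expressed zinc finger gene (chr7:6266913-6266972), was at −0.08, 0.13 and 0.52 in WT and −7.96, −7.96 and −6.79 in Het (−7.76, SE 0.36, limma adjusted p = 0.000296) and was above background on 1 Het array. Nnat, a paternally expressed membrane protein gene, was at −3.32, −1.63 and −1.95 in WT and −6.21, −5.67 and −5.30 in Het (−3.43, SE 0.47, limma adjusted p = 0.011), and the growth factor gene Igf2 at 0.82, 3.06 and 2.31 and −3.38, −4.03 and −1.65 (−5.08, SE 0.77, limma adjusted p = 0.0144). Igf2 was at 5.55 on WT and 1.25 on Het replicate 3, which kept the order of the genotypes. Dlk1, a Notch-related inhibitor of fat cell differentiation, rose with Cdkn1c: its levels were 0.72, 1.03 and 0.41 in WT and 5.08, 3.52 and 3.59 in Het (3.34, SE 0.44, limma adjusted p = 0.00924). The calls of Peg3, Cdkn1c and Dlk1 held without each of the 6 arrays, that of Nnat without 4 and that of Igf2 without 2. Over the list, leaving out 1 array gave 2 to 8 rises and 1 to 9 falls.

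Genes induced by p53, a deacetylation target of SIRT1, were lower in Het. Of 34 tested members, 15 fell and 0 rose, against 4.34% and 3.69% of all tested features, 28 were lower in value, and the median was −1.12. Perp, a p53 target of cell junctions and apoptosis, was at 3.50, 2.92 and 2.66 in WT and −0.67, −0.92 and −0.92 in Het (−3.86, SE 0.24, limma adjusted p = 0.000803). The death receptor gene Fas was at 2.54, 1.44 and 1.98 in WT and −0.69, −0.50 and −0.39 in Het (−2.52, SE 0.29, limma adjusted p = 0.00592), and Eda2r, an ectodysplasin receptor gene, at 1.31, 0.36 and 0.71 and −1.89, −1.37 and −1.41 (−2.35, SE 0.28, limma adjusted p = 0.00693). In all 3 the lowest WT array was well above the highest Het array. Sulf2, a heparan sulfatase, fell from 4.25 ± 0.44 to 2.13 ± 0.15 (SD, n = 3; adjusted p = 0.00608). The CDK inhibitor Cdkn1a (p21) was at 4.43, 3.19 and 3.27 in WT and 1.45, 1.69 and 1.64 in Het (−2.04, SE 0.34, limma adjusted p = 0.0204), and Mdm2, the ubiquitin ligase of p53, named after its values were seen, at 4.41, 3.10 and 3.25 and 1.86, 2.12 and 2.00 (−1.59, SE 0.35, limma adjusted p = 0.0441).

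The p53 list held within the slides and turned on the replicate 3 pair. Its median was −1.10 on slide 3 (replicate 2 of each genotype) and −0.79 on slide 4 (replicate 5 of each). On the replicate 3 pair it was 0.94, with 31 of 34 members higher in Het. WT replicate 3 had the lowest Cdkn1a level of these 8 arrays, 0.38, and Het replicate 3 stood at 2.47. With WT replicate 1, 2 or 5 left out there were 17, 8 or 6 falls, and with Het replicate 2, 4 or 5 left out 7, 6 or 6. With the 8 arrays it was 0, with a median of −0.63, and unscaled signals gave 8.

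Interferon response genes were higher in Het. Of 33 tested members, 11 rose and 0 fell, against 3.69% and 4.34% of all tested features, 32 were higher in value, and the median was 1.59, the highest of the 41 lists. Eif2ak2, the double-stranded RNA-dependent kinase PKR, was at 0.75, 0.50 and 1.47 in WT and 2.77, 2.36 and 2.36 in Het (1.59, SE 0.28, limma adjusted p = 0.0236). Mx1, an antiviral dynamin-like GTPase, was at −6.07, −5.36 and −3.75 in WT and −0.75, −2.10 and −2.11 in Het (3.40, SE 0.65, limma adjusted p = 0.0305), and Oasl2, of the oligoadenylate synthetase family, at 2.85, 1.22 and 2.72 and 5.01, 4.55 and 4.42 (2.40, SE 0.45, limma adjusted p = 0.0282). The groups did not overlap in any of the 3, and WT replicate 2 was the lowest WT array for Oasl2 but not for Mx1. Herc6, an ISG15 ligase (array name Herc5), rose by 1.10 (SE 0.19, adjusted p = 0.0238). Het replicate 2 had the highest list median of the 6 arrays, 3.39, and WT replicate 2 the lowest, 0.50.

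The interferon calls depended on single arrays. The median was 2.97 on slide 3 and 0.91 on slide 4. With WT replicate 1, 2 or 5 left out there were 22, 5 or 4 rises, the first beside 1 fall, and limma called 0 with any of the 3 Het replicates left out. Unscaled signals gave 1. On the replicate 3 pair the median was −0.63, with 28 of 33 members lower in Het, and the 8 arrays gave 0 calls with a median of 1.08. Of the leukocyte markers, 0 of 5 tested were called by limma, against 8.03% of all tested features. Their summed signal was 1.03 to 2.18 times the 75th percentile in WT and 1.17 to 1.36 times in Het, and Ptprc was not above background on any of the 6 arrays. MHC class I and antigen processing genes, which interferon also induces, had a median of 1.23. Of 20 tested, 4 were called up and 0 down, against 3.69% and 4.34% of all tested features. The proteasome genes Psmb10 and Psme1 rose by 0.81 and 0.99, the peptide trimming enzyme gene Erap1 by 1.12 and H2-M3 by 1.22, with adjusted p from 0.0393 to 0.049. No member of this list was called when any array other than WT replicate 1 was left out, and on the replicate 3 pair its median was −0.78.

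Promoters of the interferon list were searched for the core of the interferon-stimulated response element (GAAA, any 2 bases, GAAA), on both strands of the 250 bases before the start site (RefSeq, GRCm38.p6). Of 23 tested members with such a window, 11 (47.8%) held it, against 278 of 10814 windows of tested genes (2.57%). Of 8 called members with a window 3 held it, and 10 members, Mx1 among them, had no window in the table. The called members Cmpk2, Eif2ak2, Herc6, Ifi44 and Oasl2 had a window without it. The 3 windows of called members that held it are shown with the element in capitals, and were picked for that match. All 3 lie on the minus strand and are written 5′ to 3′, ending at the base before the start site. The Oas1a element is 2 overlapping matches, and in Rsad2 the match is on the opposite strand.
Oas1a, chr5:120907526-120907775: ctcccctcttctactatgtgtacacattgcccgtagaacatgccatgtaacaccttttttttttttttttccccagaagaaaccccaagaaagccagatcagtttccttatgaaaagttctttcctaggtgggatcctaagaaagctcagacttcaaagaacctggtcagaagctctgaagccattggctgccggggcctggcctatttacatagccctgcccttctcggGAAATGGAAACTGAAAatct
Oas3, chr5:120777660-120777909: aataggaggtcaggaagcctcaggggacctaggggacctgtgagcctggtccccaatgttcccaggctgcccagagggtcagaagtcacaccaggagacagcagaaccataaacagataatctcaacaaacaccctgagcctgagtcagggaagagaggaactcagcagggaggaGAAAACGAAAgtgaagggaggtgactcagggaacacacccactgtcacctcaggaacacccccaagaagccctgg
Rsad2, chr12:26456453-26456702: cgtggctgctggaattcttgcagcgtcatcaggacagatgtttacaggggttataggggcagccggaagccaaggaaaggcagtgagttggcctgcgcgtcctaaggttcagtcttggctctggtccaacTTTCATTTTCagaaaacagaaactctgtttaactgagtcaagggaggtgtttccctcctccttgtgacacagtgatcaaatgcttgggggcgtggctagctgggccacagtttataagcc
Their genes, named after these matches were seen, code for 2 oligoadenylate synthetases and the antiviral protein viperin. Oas1a was at 2.27, 1.10 and 1.28 in WT and 4.07, 3.13 and 3.20 in Het (1.92, SE 0.39, limma adjusted p = 0.0352), Oas3 rose by 2.00 (adjusted p = 0.0391) and Rsad2 was at 1.46, −0.76 and 0.13 and 3.67, 2.90 and 2.81 (2.85, SE 0.56, limma adjusted p = 0.0328). A match describes the sequence and is not evidence that a factor bound it.

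Smooth muscle contractile genes were lower in Het. Of 25 tested, 6 fell and 0 rose, against 4.34% and 3.69% of all tested features, 23 were lower in value, and the median was −0.75. Cnn1 (calponin 1, an actin-binding protein) was at 4.75, 4.84 and 4.82 in WT and 0.07, 0.07 and 0.12 in Het (−4.72, SE 0.13, limma adjusted p = 5.71e-05). Replicates differed by under 0.1 within each genotype, and WT and Het replicate 3 were at 2.08 and 1.35, between the groups. Synpo2 (an actin-associated protein of Z-discs) fell from −2.25 ± 0.06 to −3.92 ± 0.15, Pdlim3 (a PDZ-LIM protein) from −4.34 ± 0.33 to −7.42 ± 0.46 and Itga8 (integrin alpha 8) from −0.70 ± 0.73 to −3.05 ± 0.21 (SD, n = 3; adjusted p = 0.00234, 0.00316 and 0.0155). Pdlim3 was above background on 1 Het array. Leaving out 1 array at a time gave 3 to 12 falls, and 1 remained with the 8 arrays. The CArG box, the serum response factor motif, was in 4 of 22 windows of tested members (18.2%) and in 1.21% of all tested windows, but in 0 of the 5 called members with a window.

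**Figure D4:**
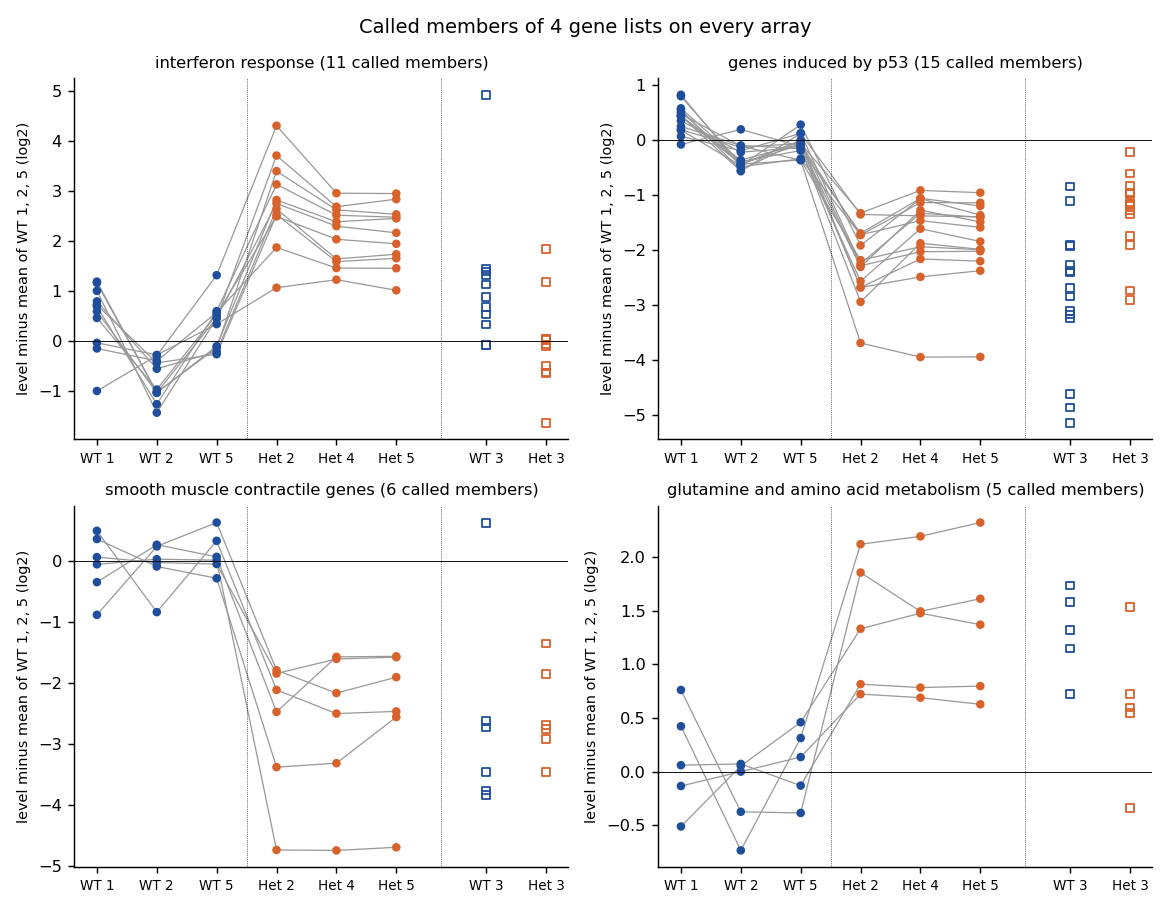
Level minus the mean of the 3 WT arrays (log2, vertical axis) of the called members of 4 lists on each of the 6 arrays (filled points, WT blue, Het orange, 1 line per gene) and on the replicate 3 arrays (open squares). Most of the 11 interferon genes lie highest on Het replicate 2, and the 15 p53 genes lie below 0 on all 3 Het arrays and on WT replicate 3.

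Some markers of contractile and other cell types also differed. Of all tested features, 3.69% were called up and 4.34% down. The 8 smooth muscle and pericyte markers include Cnn1 and Tagln of the list above. Their summed signal was 258.5 to 402.1 times the 75th percentile in WT and 88.4 to 142 times in Het. Of 7 tested, Cnn1, Mcam and Tagln were called down. The sum of 6 heart muscle markers was 17.0 to 32.4 in WT and 5.90 to 10.5 in Het. Of 4 tested, Actc1, Nkx2-5 and Tnnt2 were called down. The fourth tested heart marker, Tnni3, went the other way without passing the test (0.95, adjusted p = 0.0795). The sum of 8 endothelial markers was 3.11 to 5.25 in WT and 0.382 to 0.434 in Het, with Flt1 and Kdr called down. Tek and Esam, also tested, did not pass (0.07 and −0.26, limma adjusted p = 0.92 and 0.434). Pecam1 and Tie1 were not above background on any of the 6 arrays. Of 12 epithelial markers, Krt8 and Cldn7 were called up and Krt19 down, with sums of 8.81 to 18.8 and 1.62 to 3.85. Of the 8 tested, 5 were higher and 3 lower in Het. In WT the heart, endothelial and epithelial sums largely followed 1 gene each. These were Actc1 (level 4.05, 4.76 and 4.975), Flt1 (1.37, 2.31 and 2.15) and Krt19 (3.62, 4.13 and 2.88). Of 5 tested neural markers Elavl4 and Tubb3 fell, and of 4 tested cartilage markers Col2a1 rose. The 4 tested skeletal muscle markers gave 1 rise (Chrna1) and 1 fall (Acta1). Their part in the differences of the T-box, LIM homeobox, p53 and contractile genes was not tested. In such bulk samples fewer cells of a type and less RNA per cell cannot be told apart.

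Of 26 TGF-beta response genes tested, 5 fell and 1 rose, against 4.34% and 3.69% of all tested features, with a median of −0.18. The falls numbered 1 to 7 with 1 array left out, and 1 fall was called with the 8 arrays. Ccn2 (connective tissue growth factor, array name Ctgf) was at 6.39, 6.92 and 6.55 in WT and 2.71, 3.89 and 3.74 in Het (−3.17, SE 0.34, limma adjusted p = 0.00487). The endothelin gene Edn1 fell by 2.52 (adjusted p = 0.0168) and the matrix glycoprotein gene Thbs1 by 2.31 (adjusted p = 0.0187). Tgfbi, a TGF-beta-induced matrix protein, went the other way, from 1.19, 0.88 and 2.10 in WT to 5.37, 4.75 and 4.75 in Het (3.57, SE 0.35, limma adjusted p = 0.00386). Together the matrix lists moved in both directions, against 3.69% up and 4.34% down among all tested features. Among 30 fibrillar collagen and matrix genes 3 rose and 2 fell, with Fbn2 and Loxl2 (a lysyl oxidase) up by 2.98 and 1.01 and Col12a1 and Fbln5 (fibulin 5) down (differences of −2.10 and −1.39). The basement membrane list gave 2 rises (Col18a1, 2.07, and Agrn, 1.21) and 1 fall (Col4a5, −1.57) of 18. Matrix proteases and inhibitors gave 1 rise and 4 falls of 23, with Timp3, Adamts1, Mmp16 and Mmp2 down (differences of −1.33, −0.97, −1.14 and −1.72). Of 23 integrins and cadherins, Itga6 rose by 0.96, and Itga9, Itga8 and Cdh13 fell (differences of −3.08, −2.36 and −1.07). Among 11 small leucine-rich proteoglycans Omd fell by 1.51.

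Of 24 BMP ligands, antagonists and targets, 7 fell and 1 rose, against 4.34% and 3.69% of all tested features, and the median was −0.67. The falls numbered 3 to 8 with 1 array left out, and the 8 arrays gave no call by limma. Gdf6, a BMP-type ligand of joints, was at −2.48, −2.63 and −2.82 in WT and −7.88, −6.98 and −6.82 in Het, above background on 1 Het array (−4.58, SE 0.30, limma adjusted p = 0.00086). Bmp4 was at 1.29 ± 0.71 in WT and −1.24 ± 0.22 in Het (−2.53, SE 0.36, limma adjusted p = 0.012), its modulator Bmper fell by 2.19 (adjusted p = 0.00749) and the BMP target Id4 by 3.22 (adjusted p = 0.00231). Of 35 Wnt ligands, receptors and antagonists, 6 fell and 1 rose. Their direction depended on the fit: leaving out 1 array gave 2 to 8 falls, the 8 arrays gave 1, and the replicate block gave 4 rises and 3 falls. Wnt5a, a non-canonical ligand, was at −1.47 ± 0.12 in WT and −3.22 ± 0.21 in Het (−1.75, SE 0.17, limma adjusted p = 0.0035), with −1.57 and −3.75 on WT and Het replicate 3. The antagonists Sfrp1 and Dkk3 fell (differences of −3.74 and −1.47) and the ligand Wnt4 fell by 2.29 (adjusted p = 0.00487, 0.0155 and 0.0157), while the antagonist Sfrp2, the 1 rise, was singled out after its value was seen (1.96, SE 0.32, limma adjusted p = 0.0182).

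Growth factor and guidance genes were split. Of 25 FGF and IGF genes, 2 rose and 5 fell, against 3.69% and 4.34% of all tested features, and the replicate block gave 5 rises and 4 falls. With 1 array left out there were 2 to 6 rises and 0 to 6 falls. Fgf21, a metabolic hormone, was at −4.24, −4.96 and −3.76 in WT and −0.39, −0.64 and −0.47 in Het (3.82, SE 0.30, limma adjusted p = 0.00189) and kept its direction on the replicate 3 pair (−4.10 and −2.56). Fgf5 rose by 1.90 (adjusted p = 0.0109), and the receptor gene Igf1r fell by 1.15 (adjusted p = 0.00861). Of 40 axon guidance genes, 7 fell and 1 rose, with 20 higher and 20 lower in value and a median of 0.01. Leaving out 1 array gave 4 to 10 falls, and the 8 arrays gave no call by limma. Efna1, an ephrin ligand, rose from −2.17 ± 0.17 to −0.22 ± 0.30 (SD, n = 3; adjusted p = 0.00433). The semaphorin Sema5a, the netrin Ntn4 and the ephrin receptor Epha7 fell (differences of −2.32, −2.60 and −1.70, adjusted p = 0.00564, 0.00608 and 0.00743). Of 16 chemokines and cytokines, Il33 rose by 1.73 (adjusted p = 0.0493), without a fall.

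Retinoic acid genes, whose ligand patterns the embryo, gave 5 rises and 4 falls of 19, against 3.69% and 4.34% of all tested features, and 2 to 6 rises and 2 to 4 falls with 1 array left out. The binding protein genes Crabp1 and Crabp2 rose, Crabp2 from −3.34, −3.69 and −3.10 in WT to −0.30, −0.77 and −0.65 in Het (2.81, SE 0.21, limma adjusted p = 0.00158) and Crabp1 by 1.65 (adjusted p = 0.00318). The aldehyde dehydrogenases Aldh1a1, a retinoic acid synthesis enzyme, and Aldh1a7 fell, Aldh1a1 from 0.24, 0.87 and 0.08 to −3.54, −4.06 and −4.82 (−4.53, SE 0.37, limma adjusted p = 0.00199). Fat cell genes showed a like mixture, with 4 rises and 1 fall of 25. The lipoprotein lipase gene Lpl was at −0.16, −0.39 and −0.66 in WT and −3.85, −4.32 and −4.53 in Het, and at −0.52 and −4.51 on WT and Het replicate 3, so that all 4 WT arrays were above all 4 Het arrays (−3.83, SE 0.23, limma adjusted p = 0.00077, and 0.000678 with the 8 arrays). Ucp1, the uncoupling protein of brown fat, was called up by 2.31 (adjusted p = 0.016) but was above background on 1 of 3 WT arrays, and Prdm16 on 2.

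The lists of metabolic genes differed in how many members were called. Of 31 genes of glutamine and amino acid metabolism, 5 rose and 0 fell, against 3.69% and 4.34% of all tested features. Slc7a11, the cystine-glutamate exchanger, was at −3.97, −5.13 and −4.08 in WT and −2.27, −2.20 and −2.07 in Het (2.21, SE 0.32, limma adjusted p = 0.0123). Slc1a5, a glutamine importer, was at 2.88, 2.89 and 2.69 in WT and 3.63, 3.60 and 3.61 in Het (0.80, SE 0.13, limma adjusted p = 0.0207), a small shift with close replicates. Gpt2, the mitochondrial alanine aminotransferase, was at 1.02 ± 0.49 in WT and 2.42 ± 0.08 in Het (1.39, SE 0.26, limma adjusted p = 0.0262), and Gfpt2, of hexosamine synthesis, rose by 1.65 (adjusted p = 0.0344). The fifth was Aldh18a1, of proline synthesis (0.68, adjusted p = 0.0367), named after its value was seen. The list's median was 0.14, and −0.002 unscaled. With WT replicate 1, 2 or 5 left out there were 6, 1 or 2 rises, the first beside 1 fall, 0 with any Het replicate left out, and 2 with unscaled signals. On the replicate 3 pair the list's median was 0.11, with 18 members higher and 13 lower in Het. Over all tested features that pair had a median of 0.23, with 63.5% higher in Het. Slc1a5 went the other way on that pair, at 4.55 on WT and 3.54 on Het replicate 3.

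Of 27 ATF4 targets and ER stress genes, 5 rose and 0 fell, against 3.69% and 4.34% of all tested features, and 1 to 9 rose with 1 array left out. Slc7a11 of the list above is among them, with Trib3, a pseudokinase of that response, at 2.19, 2.01 and 2.75 in WT and 4.19, 4.43 and 4.37 in Het (2.01, SE 0.22, limma adjusted p = 0.00556). Vldlr rose by 1.48 and the cysteinyl-tRNA synthetase gene Cars by 0.69 (adjusted p = 0.00997 and 0.0356). Of 31 glutathione and NRF2 genes, 6 rose and 2 fell, with 0 to 9 rises when 1 array was left out and 1 rise with unscaled signals. Among them were the glutathione transferases Gstm2 (1.74), Gstm5 (0.98) and Gstm4 (−1.22), which are closely related in sequence. Of 30 genes of fatty acid oxidation and PPAR alpha, 4 rose and 1 fell, with the thioesterase Acot2 up by 1.43 and Cpt1c down by 0.80 (adjusted p = 0.0126 and 0.0307). Of 31 genes of cholesterol and fatty acid synthesis 3 rose and 0 fell, and among the rises the enzyme genes Dhcr7 and Fdps rose by 0.85 and 0.59. The serine and one-carbon list gave 1 rise (Aldh1l2, 1.65) and 1 fall (Gldc, of glycine cleavage, −4.12) of 19. Of 21 hypoxia genes, Ero1a and Ndrg1 rose by 0.84 and 1.32.

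Medians of the glycolysis and respiration lists lay within 0.3 of 0. Of 24 glycolysis and lactate genes, 2 rose and 1 fell, against 3.69% and 4.34% of all tested features. Aldoc, an aldolase, was at −1.28, −2.31 and −2.01 in WT and −0.03, −0.16 and −0.06 in Het, Pdk1, which inhibits pyruvate dehydrogenase, rose by 1.22, and Ldhb, a lactate dehydrogenase subunit, was at 3.63, 3.15 and 3.33 and 1.95, 2.06 and 2.16 (adjusted p = 0.0146, 0.0216 and 0.00912). The list's median was 0.28. None of 30 genes of the TCA cycle and none of 66 of oxidative phosphorylation was called by limma, with 2 and 2 at an unadjusted p under 0.05. Medians were −0.05 and 0.00, and the differences of the respiratory genes ran from −0.32 to 0.60. On the replicate 3 pair all 66 were higher in Het, with a median of 0.81, against 0.23 over all tested features. Mitochondrial ribosomal proteins gave 1 rise of 76, Mrpl23 (0.81, adjusted p = 0.0288).

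The lists of the cell cycle phases gave 2 calls, where 8.03% of all tested features were called. Of 50 genes of G1/S and DNA replication, Mcm10, a replication initiation factor, rose, at 2.32, 2.65 and 2.43 in WT and 3.58, 3.51 and 3.24 in Het (0.98, SE 0.17, limma adjusted p = 0.0212). Cdk6, the G1 cyclin-dependent kinase, fell from 2.85, 3.91 and 3.52 in WT to 1.27, 1.74 and 1.60 in Het (−1.89, SE 0.29, limma adjusted p = 0.0154). The list's median was 0.22, with 37 members higher in value. None of 39 genes of G2/M and mitosis was called by limma, 4 had an unadjusted p under 0.05, and the median was 0.06. The 18 CDK inhibitors and senescence genes held 1 rise, Cdkn1c, and 1 fall, Cdkn1a. In the list of ribosome biogenesis and Myc targets Mycn was the 1 call of 34, although 30 members were lower in value, with medians of −1.02 on slide 3 and 0.01 on slide 4. Immediate early genes gave 1 fall of 27, the phosphatase Dusp6 (−1.38, adjusted p = 0.0336).

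**Figure D5:**
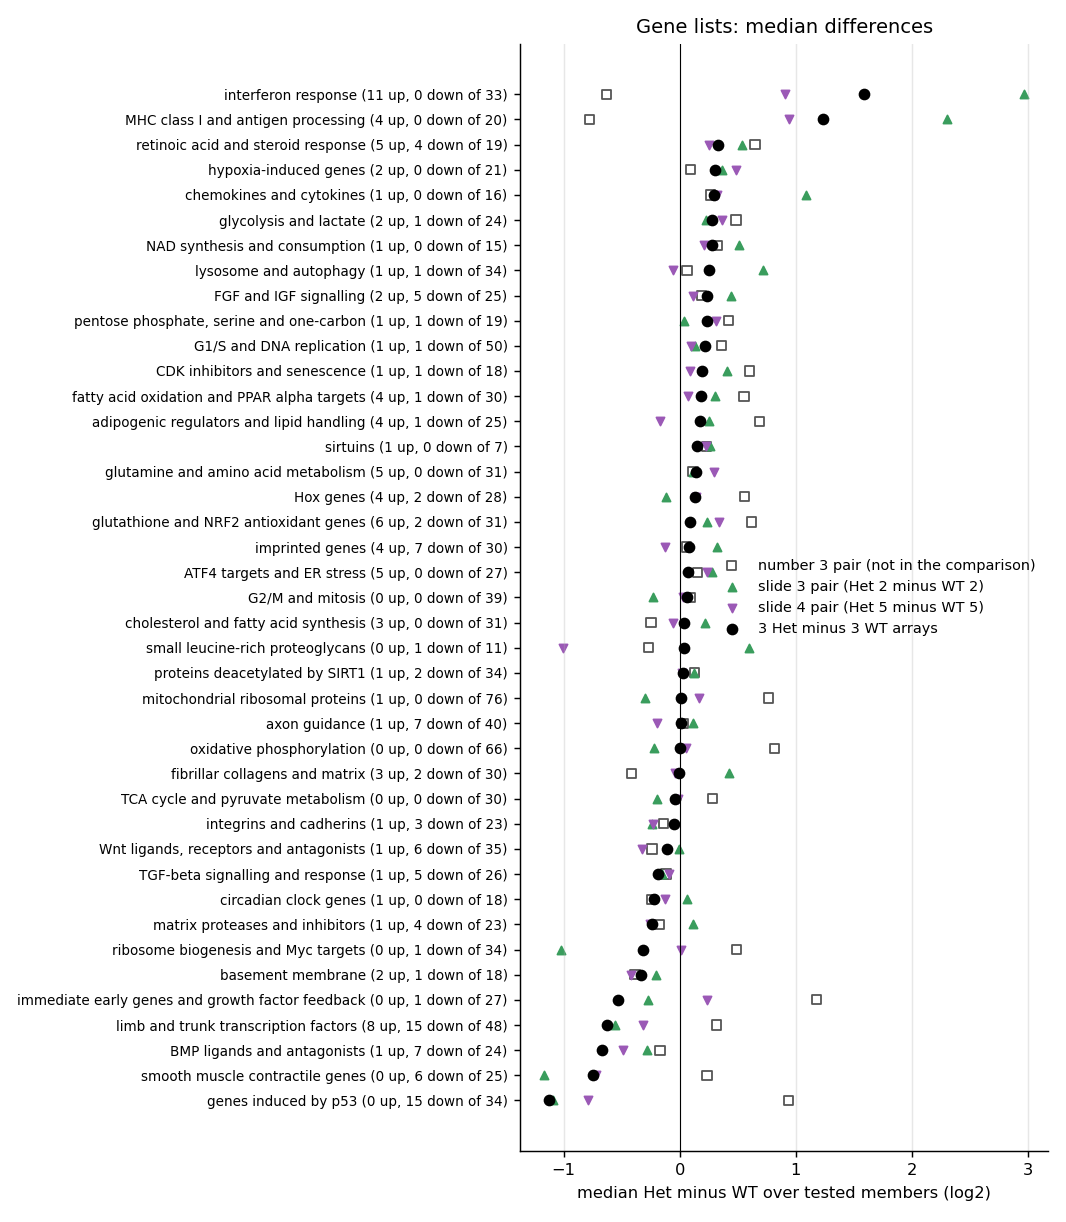
Median Het minus WT difference (log2, horizontal axis) over the tested members of 41 gene lists, for the 3 Het and 3 WT arrays (black), the slide 3 pair (triangles up), the slide 4 pair (triangles down) and the replicate 3 pair (open squares), with the called members beside each name. Interferon (1.59) and p53 (−1.12) genes lie at the ends, and their open squares (−0.63 and 0.94) lie across 0.

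The sirtuin and NAD lists gave 1 call each, where 8.03% of all tested features were called. Of the other 6 sirtuins, the mitochondrial deacylase Sirt3 rose, at 1.32, 1.29 and 1.22 in WT and 2.08, 1.94 and 1.86 in Het (0.68, SE 0.14, limma adjusted p = 0.0337), but not when any array other than WT replicate 1 was left out. The others, Sirt2, Sirt4, Sirt5, Sirt6 and Sirt7, differed by −0.06 to 0.41, and their adjusted p ran from 0.279 to 0.899. Of 15 genes of NAD synthesis and use, Nadsyn1, NAD synthetase, rose by 0.95 (SE 0.19, adjusted p = 0.0358), and Nampt, the rate-limiting salvage enzyme, differed by 0.53 without passing the test (adjusted p = 0.166). Of 34 genes of proteins that SIRT1 deacetylates, 1 rose and 2 fell, a share near that of all tested features. Mycn and the retinoblastoma gene Rb1 fell and the antioxidant regulator Nfe2l2 rose, with Rb1 at 1.61, 0.91 and 1.19 in WT and −0.09, 0.11 and 0.04 in Het (−1.22, SE 0.21, limma adjusted p = 0.0216) and Nfe2l2 up by 0.69 (adjusted p = 0.0481). The other tested Nfe2l2 probes differed by 0.63, −0.23 and −1.55, and none of them passed the test. The clock output factor Hlf was the 1 call among 18 circadian genes, at −1.98, −1.99 and −2.10 in WT and −0.76, −0.32 and −0.37 in Het (1.54, SE 0.17, limma adjusted p = 0.0053). Of 34 lysosome and autophagy genes, the protease genes Ctsl and Ctsc moved apart, by 0.80 and −2.67 (adjusted p = 0.0307 and 0.0162).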

How the data were processed

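RNA of 12 samples (500 ng each) was labelled with Cy3 and hybridised to 1-colour arrays of 45018 spots on 4 slides, all scanned on 1 day, per the file headers. The deposited values are spot intensities, background-corrected by the authors with Agilent Feature Extraction 9.5, per the file headers. The value table of the series was used as an alternative and held the same intensities.

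Levels are log2 of the deposited intensity minus the array's log2 75th percentile over non-control probes. Flagged outlier spots were left out, spots of 1 probe averaged, and each gene was read from its probe with the highest mean. Of 27670 named features, 16457 were well above background on all 3 arrays of at least 1 genotype and were tested. Probe names came from the array design, updated through RefSeq tables: of 41174 probes, 22951 matched by accession, 6659 by symbol and 3109 by synonym, and 8455 kept the array's name. Probe coordinates are of build mm7, as the files give them. The number of arrays limits the precision.

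Het and WT were compared with limma 3.58.1 (R 4.3.3; lmFit and eBayes, genotype as the only term, 4 residual degrees of freedom), with Benjamini-Hochberg adjustment over all tested features and a threshold of 0.05. All adjusted p-values of the report come from this limma fit unless another fit is named. Single Sirt1 probes also had an exact permutation test. The R package data.table (1.17.8) and, under Python 3.11.15, pandas 2.3.3 and matplotlib 3.10.9 were also used. The fitting code was tested on simulated data. "At least" folds set the bright group's mean against the lowest signal well above background.

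Genes named were the 15 largest rises and falls and the 5 of smallest p in each direction, among called genes whose arrays did not overlap, and up to 4 genes of smallest p per list. Some genes that this rule takes are not reported here. The members, the 41 gene lists and the rules were chosen with earlier results of these data known. Alternatives covered background correction, scaling, the filter, probe choice, moderation, slide and replicate number as blocks, further arrays and each array left out. WT and Het arrays that share a replicate number did not deviate together: the correlations were −0.16 for number 2 and −0.18 for number 5.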

Additional observations from a re-analysis of the deposited data

Results flagged for a closer look

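On WT replicate 3, which the labels give as female and which was outside the comparison, the Y-linked genes Ddx3y and Eif2s3y had a signal above that of every other array. Ddx3y was 5.39 and Eif2s3y 4.83 above the highest of the other 11 arrays on the log2 scale. Xist was at −2.94 there against 1.67 to 3.42 on the other arrays, and Tsix, its antisense RNA, at −8.20. Het replicate 3 was the highest of the other 11 arrays for both Y-linked genes, at −4.35 for Ddx3y and −3.92 for Eif2s3y. It also had the Xist level of 1.67. What this says of the origin of either array was not tested. The values given for WT and Het replicate 3 in the report rest on these arrays.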

How the results depend on the processing

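Of 21 alternatives, 7 kept the count of called features within 1.5 times of 1321: normexp background correction, quantile normalisation, the deposited value table, a filter on all 6 arrays, every probe tested separately, trended robust moderation, and 9 arrays with KO and a replicate block. The count was 651 unscaled, 315 without a filter on dim probes, where 27669 features were tested, 863 with the replicate block (607 of them among the 1321), 749 with the slide as a random block, 2284 with the KO arrays in the fit and 449 with Het replicates 4 and 5 averaged. The replicate number and the slide divide the 6 arrays alike, and that block leaves 1 residual degree of freedom. With WT and Het replicate 3 added the count was 34, and with a replicate block as well limma called 0, with 1632 at an unadjusted p under 0.05. Leaving out 1 array gave 348 to 2226. Apart from the settings with fewer or more arrays or features, the cause was not tested. Among the called genes that the named lists hold, Gata6, a limb and trunk factor outside the naming rule, turned, to 0.32 with the 8 arrays and a replicate block. Leaving out the scaling moves every feature by the same −0.14, and by construction this alone turns the medians of 11 of 41 lists that lie near 0, among them the ATF4, NRF2, Hox, imprinted and glutamine lists.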
